A study of Mus musculus with 12 samples.

Results

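Phospholipases A2 cut a fatty acid from the middle position of membrane phospholipids, and 10 mouse genes of this activity other than Pla2g4a, the cytosolic enzyme most often tied to arachidonic acid (AA), were followed here in brain tissue after traumatic brain injury (TBI). The genes were Pla2g2d, Pla2g2f, Pla2g3, Pla2g5, Pla2g6, Pla2g7, Pla2g12a, Pla2g15, Pla2g16 and Plb1. They were chosen by name, but with earlier results of these data already known. All 10 were found by their Ensembl identifiers in both count tables. These held 35697 identifiers for sham and TBI and 55637 for zileuton. Pla2g5, Pla2g2f and Plb1 also stand in the study's own heat map of AA genes, which was drawn from the same sham and TBI libraries, so for these 3 genes the direction after TBI is not independent evidence.

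The mice were described as adult males of the strain C57BL/6J weighing 20 to 25 g, with no genetic change. TBI was made by controlled cortical impact (CCI), in which a 3-mm tip strikes the brain at 1.5 m/s to a depth of 1.5 mm and stays for 100 ms, and sham mice had the surgery without the blow. Sham and TBI mice were sequenced in 2018, and TBI mice given vehicle or zileuton in 2022, with 3 mice in each of the 4 groups and tissue taken around the contusion at 7 days. Zileuton, an inhibitor of 5-lipoxygenase (5-LOX), was given daily by intraperitoneal injection (10 mg per kg, dissolved in corn oil), and the mice called vehicle are those that the study's text calls so, since the labels name them only as injured. The source labels of the zileuton mice read 7, 8 and 9 days, but 7 days is what all their library names say.

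The lysophospholipid left behind by a phospholipase A2 can be re-acylated, degraded or turned into signalling lipids, and free AA feeds the cyclooxygenase and lipoxygenase routes. Secreted enzymes such as those of Pla2g2d and Pla2g5 work outside the cell or in its secretory compartments. The enzyme of Pla2g6 works in the cytosol and at mitochondria without calcium, that of Pla2g15 works in lysosomes, and that of Pla2g7 removes the short acyl chain of platelet-activating factor (PAF) and of oxidised phospholipids. In the brain these enzymes are known for membrane turnover, and microglia, macrophages and neurons all use members of the family.

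The libraries held 42929862 to 48684674 counts in 2018 and 27845562 to 35453257 in 2022, and levels are given as CPM, counts scaled to a common library total after TMM normalization. Markers of neurons, astrocytes and oligodendrocytes were expressed in all 12 libraries. After TBI, all 8 microglial markers and 7 of 8 markers of macrophages and monocytes rose, their summed levels going from between 297 and 344 to between 842 and 1067 CPM and from between 22.0 and 25.0 to between 603 and 1330 CPM. Of the astrocyte markers 4 of 5 rose, with a sum of 3189 to 3507 CPM in sham mice and 6392 to 6722 CPM after TBI, and so did 3 of 5 oligodendrocyte markers (5022 to 5585 and 5717 to 10429 CPM). Also higher were 4 of 5 markers of fibroblasts and meninges, 2 of 4 of endothelial cells, 2 of 4 of mural cells and the 4 neutrophil markers tested (0.562 to 1.24 and 16.2 to 62.1 CPM). Of 6 neuronal markers 3 fell, the sum being 6561 to 7193 CPM in sham mice and 4007 to 5223 CPM after TBI. Of 5 red blood cell markers 3 fell as well, with a sum of 151 to 244 CPM in sham mice and 89.3 to 141 CPM after TBI. Markers of the choroid plexus (Ttr, Kl, Folr1 and Kcne2), the tissue that makes cerebrospinal fluid, were uneven within groups. Their sum was 1050 CPM in sham replicate 1 but 15.3 and 50.3 CPM in sham replicates 2 and 3, against 1126 to 1309 CPM after TBI. It was 6.89, 455 and 1018 CPM in vehicle mice 2, 3 and 6, and 1421, 1229.5 and 9.83 CPM in zileuton mice 2, 3 and 6, named here by the numbers of their columns. Although the labels say male, Xist had 856 to 1155 counts in every 2018 library and 1.02 to 6.01 in 2022. The Y-linked Ddx3y had at least 938 counts in all 12. The reason for the Xist counts of 2018 was not tested.

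After TBI, 7 of the 9 phospholipase A2 genes that could be tested rose, and none fell. The 7 were Pla2g2d, Pla2g5, Pla2g7, Pla2g12a, Pla2g15, Pla2g16 and Plb1, each called by the quasi-likelihood test of edgeR at an adjusted p-value below 0.05. Of all 19536 genes tested, 28% passed this threshold in either direction and 16.8% were higher. Unadjusted, 8 of the 9 had a p-value under 0.05, as did 39.6% of all genes. The median log2 fold change of the 9 genes was 0.86, against 0.02 over all genes tested. Pla2g2d, Pla2g5 and Plb1 were called and at least 2-fold higher, as were 8.73% of all genes. In 8 of the 9 tested genes, and in Pla2g2f, every TBI mouse lay above every sham mouse, a separation found in 24.6% of all genes tested. The reverse separation was found in none of the 10 and in 19.8% of all genes, so that 44.4% separated in some direction. With sham replicate 1 as the only sham mouse, because the other two had few choroid plexus counts, 2 of the 10 members, all tested there, passed, Pla2g7 and Pla2g15, and 7.22% of all genes were called. This fit was added after the data were seen. In whole tissue, fewer cells of a type and less RNA per cell cannot be told apart, and the part of the risen microglial, macrophage, astrocyte and other markers in these values was not tested.

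**Figure D1:**
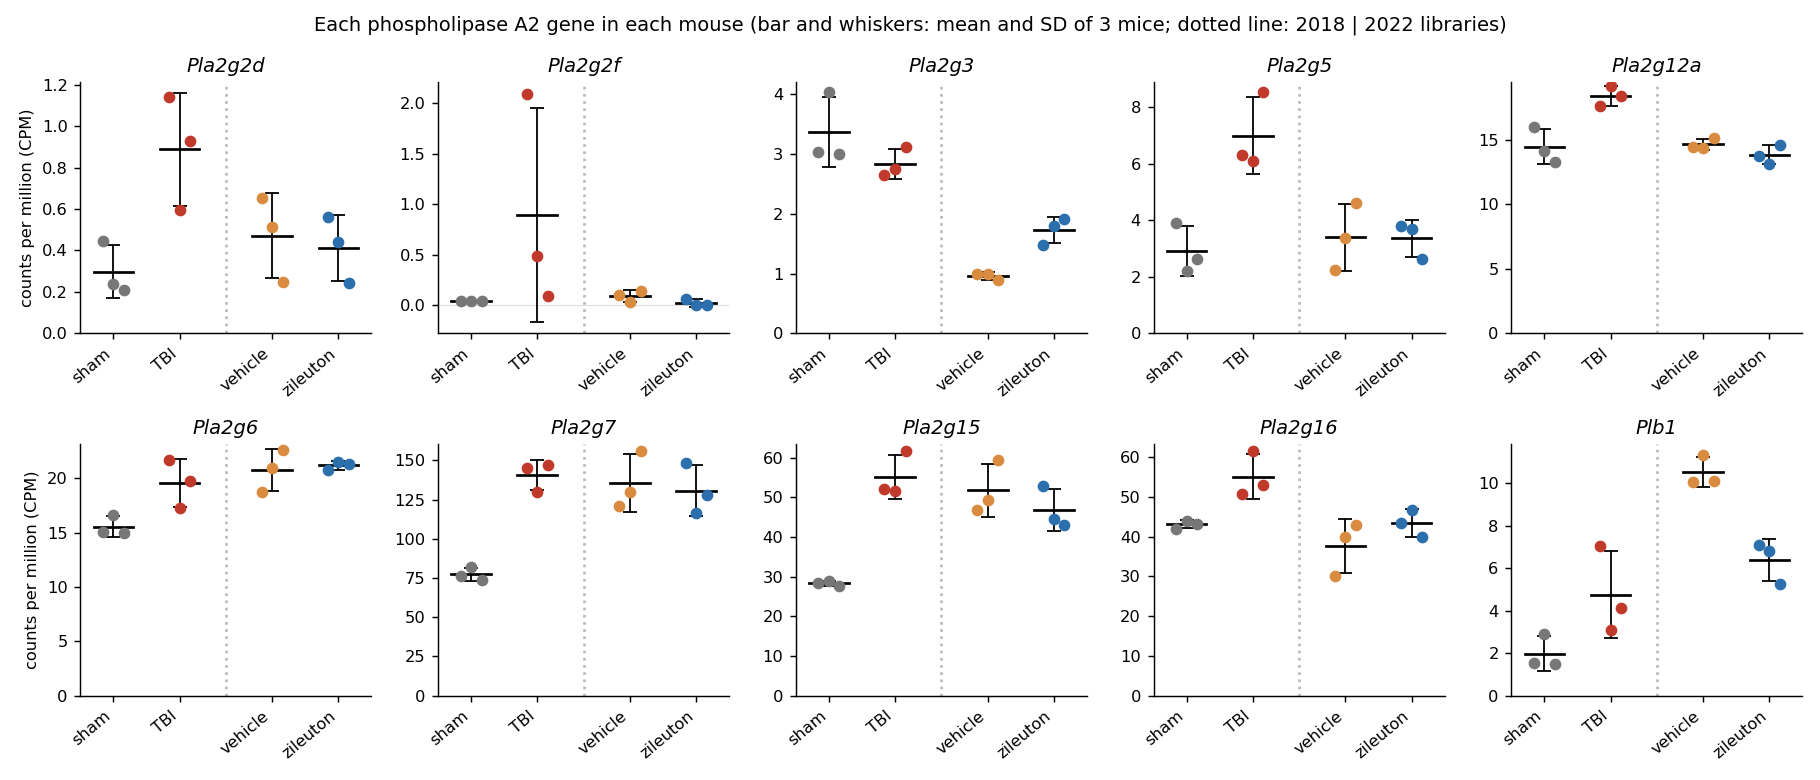
Expression of the 10 phospholipase A2 genes in CPM (vertical axes, each with its own scale) in 3 mice each of the sham, TBI, vehicle and zileuton groups. Points are mice, bars are means and whiskers are SDs, and the dotted lines part the libraries of 2018 and 2022, which are not compared with each other. The TBI points lie above the sham points in every panel but that of Pla2g3.

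**Figure D2:**
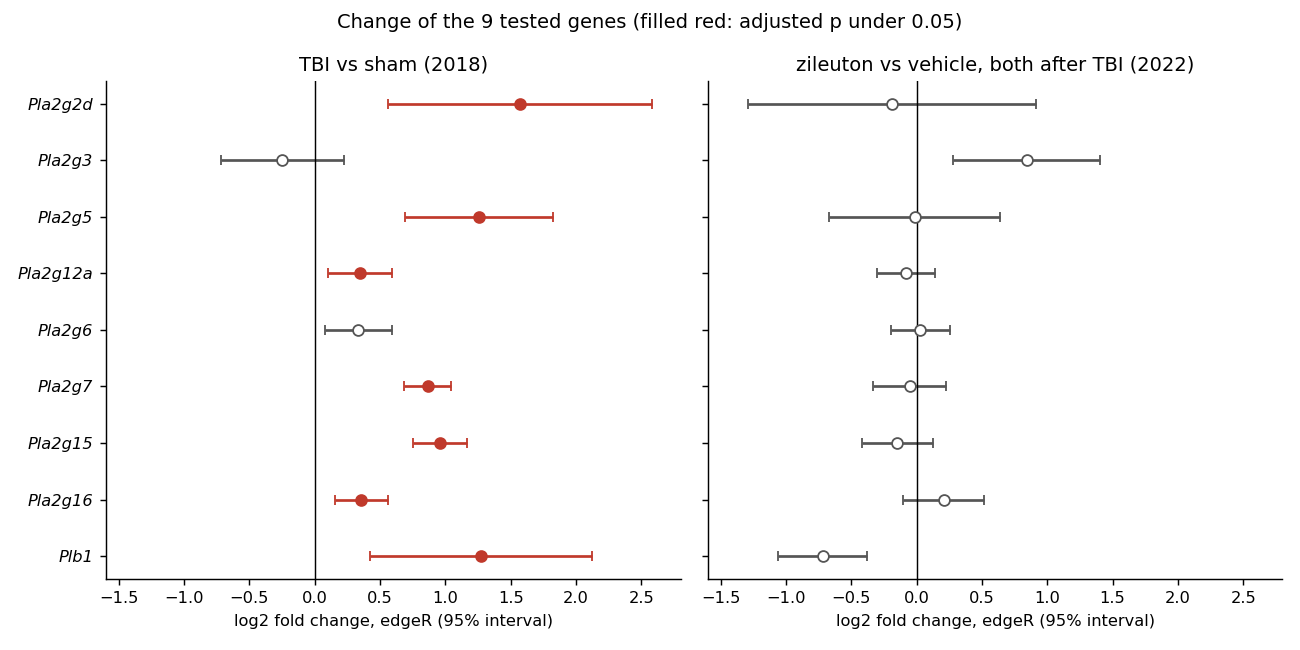
Log2 fold changes of the 9 tested genes from edgeR with 95% intervals, for TBI against sham (left) and zileuton against vehicle (right). Filled red points have an adjusted p-value under 0.05, which 7 genes reached after TBI and none with zileuton.

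Per transcript length, Pla2g7 was the most highly expressed of the 10 genes in every group. In sham mice it had 26.1 ± 1.46 FPKM (SD, n = 3), fragments scaled by transcript length and library total, followed by Pla2g15 at 9.22 ± 0.218, Pla2g16 at 6.60 ± 0.184, Pla2g12a at 3.85 ± 0.348 and Pla2g6 at 2.81 ± 0.179 FPKM. The mice of these neighbours in the order did not overlap. Pla2g5 at 0.991 ± 0.296 and Pla2g3 at 0.703 ± 0.125 FPKM overlapped, and so did Plb1 at 0.166 ± 0.0698 and Pla2g2d at 0.130 ± 0.0550 FPKM. Pla2g2f was last at 0.0172 ± 0.000378 FPKM, the level that 2 counts gave in each sham mouse. The order was the same after TBI, where Pla2g7 stood at 49.2 ± 2.46, Pla2g15 at 18.6 ± 1.68 and Pla2g5 at 2.46 ± 0.445 FPKM (SD, n = 3 each). After TBI the mice of Pla2g3, Plb1, Pla2g2d and Pla2g2f overlapped from each to the next. Pla2g7 made up 51.6% of the summed FPKM of the 10 genes in sham mice and 55.0% after TBI.

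**Figure D3:**
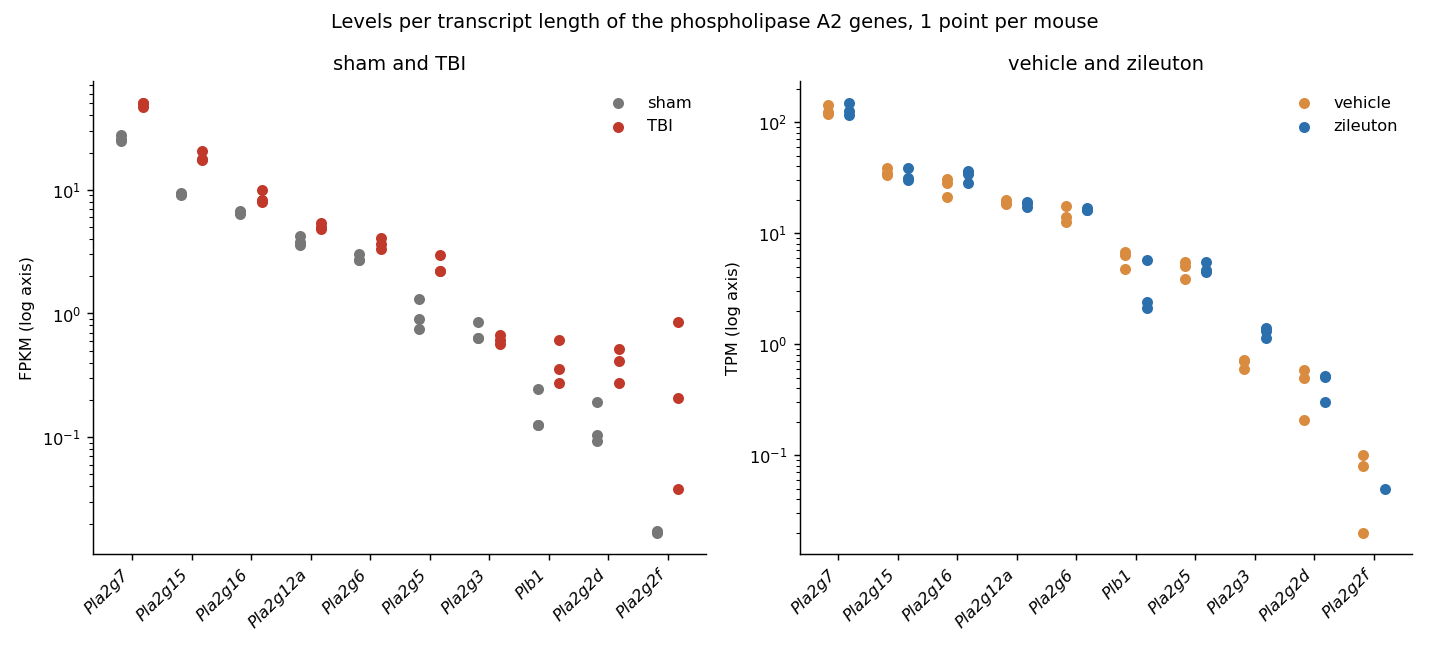
Levels of the 10 genes per transcript length on log axes, in FPKM for sham and TBI mice (left) and in TPM (transcripts scaled by length and library total) for vehicle and zileuton mice (right), with 1 point per mouse. Genes are ordered by their mean in the control group, and 2 zileuton mice with no count of Pla2g2f are not drawn. Pla2g7 and Pla2g15 lead in all groups and Pla2g2f is last.

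The promoters of the 3 genes called at least 2-fold higher, and of the 2 most abundant ones, are shown here because these 5 genes had the largest called changes among the 10. Each covers 300 bases, from 250 before the start of transcription to 50 after it, on GRCm38.p6 and read 5′ to 3′ on the strand of the gene (sequence from RefSeq). They lie at chr4:138775485-138775784 (plus strand) for Pla2g2d, chr4:138863420-138863719 (minus strand) for the first of 2 promoters of Pla2g5, chr5:32238834-32239133 (plus strand) for the first of 2 of Plb1, chr17:43568201-43568500 (plus strand) for Pla2g7 and chr8:106150104-106150403 (plus strand) for Pla2g15. Capitals mark matches on either strand to GAGGAA (the core of sites for PU.1, a factor of myeloid cells), TGANTCA (AP-1) or GGGCGG (GC box).
Pla2g2d: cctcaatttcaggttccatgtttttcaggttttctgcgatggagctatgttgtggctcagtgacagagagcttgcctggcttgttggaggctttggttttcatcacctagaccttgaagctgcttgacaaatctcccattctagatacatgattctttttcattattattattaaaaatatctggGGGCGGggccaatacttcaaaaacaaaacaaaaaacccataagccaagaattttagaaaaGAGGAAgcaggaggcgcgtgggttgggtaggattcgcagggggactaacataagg
Pla2g5: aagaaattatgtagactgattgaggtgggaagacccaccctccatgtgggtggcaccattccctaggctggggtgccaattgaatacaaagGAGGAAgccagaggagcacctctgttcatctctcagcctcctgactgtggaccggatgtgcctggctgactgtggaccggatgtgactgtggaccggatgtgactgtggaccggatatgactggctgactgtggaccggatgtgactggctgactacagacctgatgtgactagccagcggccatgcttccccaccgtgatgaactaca
Plb1: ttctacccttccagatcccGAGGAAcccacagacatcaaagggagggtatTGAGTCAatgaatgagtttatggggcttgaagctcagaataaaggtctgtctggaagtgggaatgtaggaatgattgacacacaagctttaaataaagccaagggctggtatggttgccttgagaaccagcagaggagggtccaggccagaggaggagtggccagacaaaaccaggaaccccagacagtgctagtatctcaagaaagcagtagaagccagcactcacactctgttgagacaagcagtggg
Pla2g7: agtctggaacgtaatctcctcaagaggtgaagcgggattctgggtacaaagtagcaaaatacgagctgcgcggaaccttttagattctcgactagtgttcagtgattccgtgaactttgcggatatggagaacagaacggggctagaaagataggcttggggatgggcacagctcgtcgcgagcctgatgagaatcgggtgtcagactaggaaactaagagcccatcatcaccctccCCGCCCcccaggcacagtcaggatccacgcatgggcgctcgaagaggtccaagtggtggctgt
Pla2g15: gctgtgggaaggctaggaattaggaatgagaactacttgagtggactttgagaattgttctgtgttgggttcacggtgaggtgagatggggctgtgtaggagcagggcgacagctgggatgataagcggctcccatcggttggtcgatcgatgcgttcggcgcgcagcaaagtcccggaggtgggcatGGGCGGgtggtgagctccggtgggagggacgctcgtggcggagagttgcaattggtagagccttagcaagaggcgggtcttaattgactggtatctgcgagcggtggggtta
The GAGGAA core stood in the promoters of Pla2g2d, Pla2g5 and Plb1 and in neither of the other 2 shown here. Of those not shown, the promoter of Pla2g12a, the called gene with the smallest rise, and the second of Plb1 also held it. The second promoter of Pla2g5 did not. Over the 12 promoters found for 9 of the 10 genes (none for Pla2g3), 5 held it, and 28.3% of 32851 mouse promoters of the same length did. The GC box was in 7 of the 12 and in 35.7% of all promoters, and TGANTCA in 3 of the 12 and in 7.8% of all. Both counts include 2 overlapping promoters of Pla2g16 that hold the same matches. Neither the E-box CACGTG (7.2% of all promoters) nor TATAAA (13.6%) was found in any of the 12. These are matches of letters only, with no measure of binding.

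Pla2g5 (ENSMUSG00000041193) had the lowest adjusted p-value from edgeR after TBI among Pla2g2d, Pla2g3, Pla2g5 and Pla2g12a. Its product is a secreted enzyme of macrophages and heart muscle that can act on phosphatidylcholine and so release AA. The level was 3.91, 2.20 and 2.63 CPM in sham replicates 1, 2 and 3, and 6.30, 6.10 and 8.54 CPM after TBI. The groups did not overlap, sham replicate 1 being the highest of the sham mice. From 2.91 ± 0.885 to 6.98 ± 1.36 CPM (SD, n = 3 each), edgeR gave a log2 fold change of 1.26 (standard error, SE, 0.249, adjusted p = 0.00603), and it stayed called with each mouse left out, at 1.07 to 1.51. Sham replicate 1 was also the only sham mouse with high choroid plexus markers, and in 2022 the vehicle and the zileuton mouse with the lowest of these markers had the lowest Pla2g5 of their groups in CPM. In TPM this held for the vehicle mouse (3.88, against 5.52 and 5.07 TPM) but not for the zileuton mouse, with 5.51, 4.45 and 4.68 TPM in mice 2, 3 and 6. The ratio of counts to TPM of Pla2g5 varied between libraries with a coefficient of variation of 0.187. With sham replicate 1 as the only sham mouse, a fit added after the data were seen, the log2 fold change of Pla2g5 was 0.80 (adjusted p = 0.158). Its 3.91 CPM still lay under the lowest TBI mouse, and the part of the choroid plexus was not tested further. On FPKM with an equal-variance two-sample test the adjusted p-value was 0.0517.

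**Figure D4:**
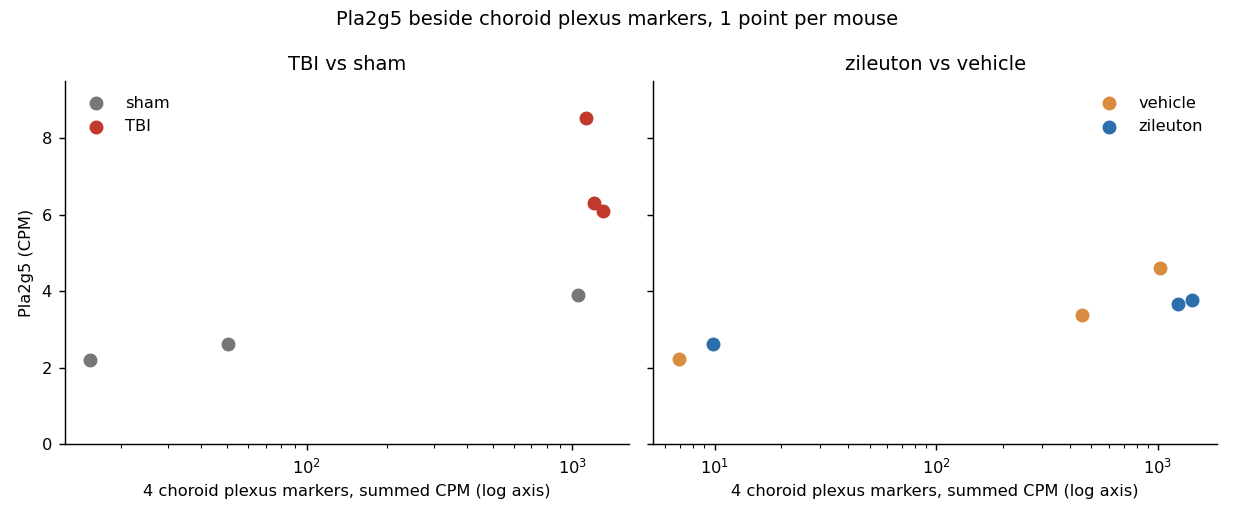
Pla2g5 in CPM (vertical axis) against the summed CPM of 4 choroid plexus markers (horizontal axis, log scale), with 1 point per mouse. In 2018 (left) sham replicate 1 has a marker sum of 1050 CPM, below the 1126 to 1309 CPM of the TBI mice, and less Pla2g5. In 2022 (right) the mouse with the lowest marker sum in each group has the least Pla2g5 on this scale.

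Pla2g2d (ENSMUSG00000041202), known from dendritic cells and macrophages of lymphoid tissue, was scarce and rose 2.97-fold in the edgeR fit. Sham mice had 0.444, 0.238 and 0.210 CPM, from 20, 11 and 10 counts, and TBI mice 1.14, 0.595 and 0.929 CPM, from 56, 29 and 40 counts. All TBI mice lay above all sham mice, TBI replicate 1 being the highest. In log2 terms the difference was 1.57 (SE 0.446, adjusted p = 0.0292). The counts were low and the 95% interval was wide, at 1.47- to 6.00-fold. The call was lost without sham replicate 2 or 3 or TBI replicate 1 or 3 (adjusted p = 0.0970, 0.107, 0.1005 and 0.0686). With sham replicate 1 alone the log2 fold change was 0.96 (adjusted p = 0.389), and limma on unfiltered FPKM gave an adjusted p-value of 0.0578. The summed level of 6 dendritic cell markers, of which Itgax and Clec9a rose and Zbtb46 fell, went from between 19.0 and 22.1 to between 21.2 and 29.2 CPM, and its part was not tested.

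Pla2g2f (ENSMUSG00000028749), known from the epidermis, was almost absent in sham brain and uneven after TBI. It had 2 counts in each sham mouse and 103, 24 and 4 counts after TBI, or 0.0444, 0.0432 and 0.0421 CPM against 2.09, 0.493 and 0.0929 CPM. The TBI mice lay above the sham mice, but TBI replicate 3 had only 2 counts more than they did. The gene did not pass the expression filter. Over the summed counts of 6 and 131 it was 21.5-fold higher (95% counting interval 9.62 to 59.6, which covers counting error only), and without TBI replicate 1 it was 7.06-fold higher (2.87 to 20.8). Since a count is not taken as a molecule, counts divided by 2 were also used. These sums of 3 and 66 gave 21.7-fold with a wider interval of 7.10 to 108. When the filter was lifted, edgeR gave 19.4-fold (adjusted p = 0.00335). Pla2g2f also passed the filter without sham replicate 1, 2 or 3 and without TBI replicate 3, fits that tested all 10 members. It was not called without any of the sham replicates, and was called without TBI replicate 3. Of the epidermal markers, Krt14 and Krt5 were under 0.1 CPM on average in both groups. The summed level of the 4 markers, 16.7 to 21.4 CPM in sham mice and 20.3 to 21.2 CPM after TBI, came almost wholly from Krt10 (9.72 and 11.4 CPM) and Lor (8.56 and 9.19 CPM).

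The study lists PCR primers for Pla2g5 and Pla2g2f, which lie within the coding sequence of their transcripts (GENCODE M21). They are shown because they tell which part of each transcript such an assay reads, and no PCR values were used here.
Pla2g5 forward: ccagggggcttgctagaac
Pla2g5 reverse: agcaccaatcagtgccatcc
Pla2g2f forward: actggacggaagagcccaa
Pla2g2f reverse: ggatggagtttctgtgtgtgat
The Pla2g5 pair spans 136 bases in each of the 4 transcripts that hold it, over a junction of 2 exons. The Pla2g2f pair spans 178 bases of its transcript, from exon 1 to exon 3 of 5.

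Pla2g2d, Pla2g2f and Pla2g5 lie together on chromosome 4, in a stretch of 158 kb (GRCm38, 138724792 to 138882817) with 3 further secreted phospholipase A2 genes. These neighbours were near 0. Pla2g2a, annotated as a polymorphic pseudogene, which lies within the span of Pla2g5 on the other strand without sharing exonic bases, had 2 counts in 1 sham mouse and none after TBI. For Pla2g2e the sham counts were 0, 1 and 0 and the TBI counts 4, 2 and 12. For Pla2g2c they were 17, 4 and 25 and then 5, 4 and 5, so its counts did not move with those of the 3 members. None of these 3 neighbours passed the expression filter.

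The changes of Pla2g12a and Pla2g3 were smaller. Pla2g12a (ENSMUSG00000027999), a secreted enzyme with a divergent sequence and weak activity, rose from 16.0, 14.1 and 13.3 CPM to 17.6, 19.1 and 18.3 CPM, groups that did not overlap. This is a log2 fold change of 0.34 (SE 0.107, adjusted p = 0.0412). Of the fits that left a mouse out it passed only without sham replicate 1, with an adjusted p-value of 0.132 and 0.176 without sham replicates 2 and 3 and of 0.0621, 0.103 and 0.0744 without TBI replicates 1, 2 and 3. Nor did it pass with DESeq2 (adjusted p = 0.0633) or in 5 further alternatives (0.0537 to 0.0906). With sham replicate 1, its highest sham mouse, as the only sham mouse, the log2 fold change was 0.17 (adjusted p = 0.551). Pla2g3 (ENSMUSG00000034579), the mammalian relative of the bee venom enzyme, had 3.04, 4.04 and 3.01 CPM in sham mice and 2.64, 2.75 and 3.11 CPM after TBI. These groups overlapped, and the log2 fold change of -0.25 had a 95% interval of -0.72 to 0.22 (adjusted p = 0.417). Pla2g3 shares 401 of its 4696 exonic bases with Inpp5j on the other strand, so reads there cannot be told apart if counting ignored strand.

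Of the intracellular enzymes, Pla2g15 (ENSMUSG00000031903), the lysosomal phospholipase A2, rose in every TBI mouse. Sham mice had 28.4, 28.9 and 27.6 CPM and TBI mice 52.0, 51.6 and 61.6 CPM. The sham mice were close together and far below the lowest TBI mouse. On the log2 scale Pla2g15 rose by 0.96 (SE 0.0908, adjusted p = 0.000116). It was 0.87 to 1.01 with each mouse left out, passed under all alternatives, and was 0.92 (adjusted p = 0.0227) with sham replicate 1 as the only sham mouse.

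Pla2g16 (ENSMUSG00000060675), also called Plaat3, is best known from fat tissue and was 1.28-fold higher after TBI. Sham mice had 41.95, 43.9 and 43.2 CPM and TBI mice 50.7, 61.6 and 52.9 CPM, TBI replicate 2 being the highest. The rise was 0.36 on the log2 scale (SE 0.0891, adjusted p = 0.0174), and the call was lost without sham replicate 1, 2 or 3 (adjusted p = 0.0736, 0.0576 and 0.0689). It was also lost with sham replicate 1 alone (0.36, adjusted p = 0.2198) and in the equal-variance test (adjusted p = 0.0919). Fat cell markers were at 0 to 0.155 CPM in sham mice and 0.0410 to 0.285 CPM after TBI, summed over 4 genes.

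Pla2g6 (ENSMUSG00000042632), the calcium-independent enzyme whose human counterpart is mutated in infantile neuroaxonal dystrophy, did not pass the threshold. It had 15.0, 16.6 and 14.9 CPM in sham mice and 21.7, 17.3 and 19.7 CPM after TBI. The TBI mice lay above the sham mice, though TBI replicate 2 was close to sham replicate 2. Its log2 fold change was 0.33 (SE 0.114, 95% interval 0.07 to 0.59, adjusted p = 0.0582). Without TBI replicate 2 it was 0.42 and passed (adjusted p = 0.0307), and it also passed with library totals alone (adjusted p = 0.0314) and with limma on filtered FPKM at a pseudocount of 1 or 0.1 (adjusted p = 0.0412 and 0.0391).

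Pla2g7 (ENSMUSG00000023913), the PAF acetylhydrolase, was the most abundant member and rose 1.82-fold (95% interval 1.61 to 2.06). Sham mice had 76.1, 82.0 and 73.8 CPM and TBI mice 145, 130 and 147 CPM. No TBI mouse came near the sham range. Pla2g7 thus rose by 0.86 on the log2 scale (SE 0.0787, adjusted p = 9.37e-05), it passed under all alternatives, and it was 0.86 (adjusted p = 0.0178) with sham replicate 1 as the only sham mouse. Pla2g7 shares 319 of its 2905 exonic bases with an antisense gene, 1700071M16Rik.

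Plb1 (ENSMUSG00000029134) encodes phospholipase B, a membrane enzyme of the intestinal brush border that removes both fatty acids in turn. Its level was 1.51, 2.92 and 1.47 CPM in sham mice and 7.05, 3.08 and 4.13 CPM after TBI. The groups came close to each other, with sham replicate 2 just under TBI replicate 2, and TBI replicate 1 stood above the rest. Plb1 rose by 1.27 on the log2 scale (SE 0.375, adjusted p = 0.0340), or 2.42-fold with a 95% interval of 1.34 to 4.36. The call was lost without sham replicate 1 or 3 or TBI replicate 1 or 3 (adjusted p = 0.117, 0.115, 0.110 and 0.0505), and with limma on log2(FPKM + 1) of all genes (adjusted p = 0.161). With sham replicate 1 alone the log2 fold change was 1.62 (adjusted p = 0.130).

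Genes that act beside these enzymes were read in the same fit, as 5 lists. Of all 19536 genes tested there, 16.8% rose and 11.2% fell. Among 17 other genes with phospholipase A2 activity, 8 could be tested and 3 rose. Prdx6, a peroxiredoxin that also hydrolyses phospholipids, rose by 1.46 on the log2 scale (188 to 518 CPM, adjusted p = 4.86e-05), as did Pla2g4a (1.46, 3.15 to 8.66 CPM, adjusted p = 0.000287), and Lcat, which transfers the fatty acid to cholesterol, rose by 1.09 (20.1 to 42.8 CPM, adjusted p = 0.00110). Pla2g4e, which makes precursors of endocannabinoids, fell by 0.89 (11.6 to 6.28 CPM, adjusted p = 0.00323) and Plaat1, a relative of Pla2g16, fell by 0.58 (32.6 to 21.8 CPM, adjusted p = 0.0145, but 0.0541 without sham replicate 1). The genes with phospholipase A2 activity therefore did not all go one way, and the median of the 8 was 0.45.

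Of the 7 genes of the receptor and of regulators, 2 rose, Anxa1 and Anxa2, and 1 fell, against 16.8% and 11.2% of all genes. The annexins bind membranes and are known as inhibitors of phospholipase A2. Anxa1 was at 110, 85 and 117 counts in the sham group and at 653, 265 and 1164 in the TBI group (log2 fold change 2.76, adjusted p = 0.00395), and Anxa2 rose by 2.26 (adjusted p = 6.74e-05). The receptor gene Pla2r1 had a log2 fold change of 0.30 (adjusted p = 0.572), with sham mice at 23 to 48 counts and TBI mice at 41 to 55.

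Of 14 genes of reacylation, which returns fatty acids to lysophospholipids, 3 rose and 5 fell, against 16.8% and 11.2% of all genes. Lpcat2, which also makes PAF in activated macrophages, rose by 1.87 (7.57 to 27.6 CPM, adjusted p = 2.20e-05), Lpcat3 by 0.93 (adjusted p = 0.000157) and Lpcat1 by 0.31 (adjusted p = 0.0329). The call of Lpcat1 was lost without sham replicate 1 or 3 or TBI replicate 2 or 3 (adjusted p = 0.121, 0.133, 0.0851 and 0.0759). Lpcat4, Mboat7, which places AA on phosphatidylinositol, and Lpgat1 fell by 0.44, 0.44 and 0.43 (adjusted p = 0.0138, 0.00313 and 0.00407). Of 7 genes of PAF handling, 4 rose, among them Lpcat1 and Lpcat2 again, and 2 fell. The PAF receptor gene Ptafr rose by 2.94 (1.59 to 12.3 CPM, adjusted p = 1.67e-05) and Pafah2, which codes for a PAF acetylhydrolase inside the cell, by 0.78 (adjusted p = 0.00872). Pafah1b1 and Pafah1b2, subunits of the brain enzyme, fell by 0.33 and 0.23 (adjusted p = 0.00811 and 0.0417). Of the fits that left a mouse out, Pafah1b2 was called only in that without sham replicate 2, with adjusted p-values of 0.119 and 0.0809 without sham replicates 1 and 3 and of 0.0626, 0.0944 and 0.0708 without TBI replicates 1, 2 and 3.

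Of 21 genes that handle lysophospholipids, 11 rose and only Gpcpd1 fell, against 16.8% and 11.2% of all genes. Gpcpd1 fell by 0.27 (adjusted p = 0.0301, but 0.0799, 0.0984 and 0.0760 without sham replicate 1, sham replicate 3 and TBI replicate 3). The receptor gene Gpr132 was not counted in any sham mouse but had 22, 24 and 15 counts in TBI mice, which is at least 20.0-fold higher when 3 counts over the sham group stand for its 0. Lpar5, a receptor of lysophosphatidic acid, rose by 2.09 (0.325 to 1.39 CPM, adjusted p = 0.00224) and the phosphatase gene Plpp2 by 1.61 (adjusted p = 0.00385). The median of the 21 genes was 0.68. Enpp2, which makes lysophosphatidic acid and is strong in the choroid plexus, had 29399 counts in sham replicate 1 and 10893 and 12156 in the other two, and did not pass (log2 fold change 0.75, adjusted p = 0.136).

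Some of these pathway calls ended under other settings. With sham replicate 1 as the only sham mouse, the adjusted p-value was 0.223 for Pafah2, whose log2 fold change was 0.45 there, 0.143 for Anxa1, 0.118 for Pafah1b1, 0.107 for Lpcat4, 0.0969 for Lpar5, 0.0759 for Pla2g4e and 0.0531 for Lpgat1. In the equal-variance test on FPKM it was 0.218 for Anxa1, 0.146 for Lpcat4, 0.0692 for Plpp2 and 0.0505 for Anxa2, and with limma on unfiltered FPKM it was 0.0633 for Anxa1 and 0.0914 for Lpcat4. Plaat1, Lpcat1, Pafah1b2 and Gpcpd1 lost the call in all 3 of these fits. Prdx6, Pla2g4a, Lcat, Lpcat2, Lpcat3, Mboat7 and Ptafr were called under all 18 alternatives.

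**Figure D5:**
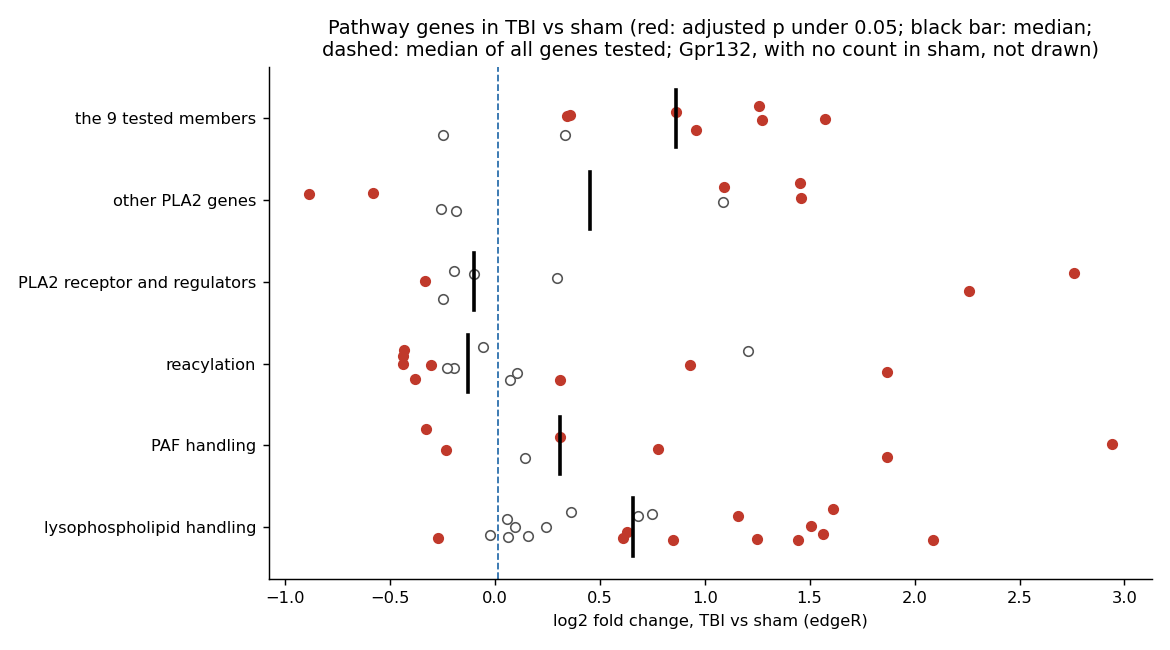
Log2 fold changes of TBI against sham for the 9 tested phospholipase A2 genes and for 5 lists of genes around them, with 1 point per gene. Red points have an adjusted p-value under 0.05 from edgeR, black bars are medians, and the dashed line is the median of all genes tested (0.02). Gpr132 is not drawn, and Lpcat1 and Lpcat2 stand in both the reacylation and the PAF rows.

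With zileuton, no phospholipase A2 gene differed from vehicle at an adjusted p-value under 0.05 from edgeR, nor did any of the 17363 genes tested (0%). Of the 9 tested members, 2 had an unadjusted p-value under 0.05, Plb1 (lower) and Pla2g3 (higher), as did 6.83% of all genes, 3.9% lower and 2.93% higher. DESeq2 called 1 member, Plb1, and 27 of the 29601 genes with at least 1 count (0.0912%). Not all of these genes were given an adjusted p-value, so the share among those that were is higher. In Plb1 and Pla2g3 alone among the 10 the mice of the groups did not overlap, which 13.6% of all genes showed (7.04% lower and 6.51% higher). Of 5 red blood cell markers, 4 were lower with zileuton at an unadjusted p-value under 0.05 from edgeR. Their list summed to 216 to 342 CPM in vehicle and 191 to 206 CPM in zileuton mice. Macrophages and monocytes, astrocytes and endothelial cells had 1 such marker each, in either direction, and the other marker lists none.

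Plb1, which rose after TBI, had 10.1, 11.3 and 10.1 CPM in vehicle mice 2, 3 and 6 and 7.10, 6.79 and 5.26 CPM in zileuton mice. Every zileuton mouse lay below every vehicle mouse. The fitted log2 fold change was -0.72 (SE 0.148, 95% interval -1.06 to -0.38, unadjusted p = 0.00119, adjusted p = 0.713), and by p-value the gene was number 19 of all tested. DESeq2 gave an adjusted p-value of 0.0490, and the other alternatives 0.165 to 0.998. On TPM, the deposited value per length, the groups overlapped, with 4.71, 6.78 and 6.40 TPM in vehicle mice and 5.70, 2.41 and 2.12 TPM in zileuton mice. For Plb1 the ratio of counts to TPM varied between libraries with a coefficient of variation of 0.308, against a median of 0.0284 over 12511 genes, and the reason was not tested.

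Pla2g3 had 0.994, 1.00 and 0.892 CPM in vehicle mice and 1.48, 1.79 and 1.92 CPM in zileuton mice, from 25.0 to 35.04 and 45.5 to 57.0 estimated counts. All zileuton mice were higher. For Pla2g3 it was 0.84 (SE 0.245, 95% interval 0.28 to 1.40, unadjusted p = 0.00867, adjusted p = 0.713), and no alternative called it (adjusted p = 0.369 to 0.998). On TPM the groups did not overlap either, at 0.673 ± 0.0643 and 1.29 ± 0.133 TPM (SD, n = 3 each).

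The other 7 tested members lay between -0.19 and 0.21 on the log2 scale, and all their groups overlapped. The intervals were narrow for the abundant genes and wide for the scarce ones. They were -0.33 to 0.23 for Pla2g7 (136 ± 18.3 and 131 ± 16.1 CPM), -0.42 to 0.12 for Pla2g15 (51.8 ± 6.64 and 46.7 ± 5.37 CPM), -0.11 to 0.52 for Pla2g16 (37.6 ± 6.79 and 43.4 ± 3.45 CPM), -0.20 to 0.25 for Pla2g6 and -0.30 to 0.14 for Pla2g12a (SD, n = 3 each). A difference of 2-fold lay outside each of these intervals. For Pla2g5, with 2.23, 3.37 and 4.60 CPM in vehicle mice and 3.78, 3.68 and 2.61 CPM in zileuton mice, the interval was -0.67 to 0.64. Pla2g2d, with 7 to 19 counts in a mouse, had an interval of -1.29 to 0.92, so a 2-fold fall could not be told from no change. Pla2g2f had 3, 1 and 4 counts in vehicle mice and 2, 0 and 0 in zileuton mice, a ratio of 0.253 (95% counting interval 0.0262 to 1.27), and did not enter the test.

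None of the pathway genes was called with zileuton by edgeR or DESeq2. Of the 21 genes of lysophospholipid handling 2 had an unadjusted p-value under 0.05 from edgeR, of the 7 regulators 1, and of the other 3 lists none. Among all genes tested the share was 6.83%. Per length, Pla2g7 again led, with 128 ± 13.2 TPM in vehicle and 131 ± 17.7 TPM in zileuton mice (SD, n = 3 each), followed by Pla2g15, Pla2g16, Pla2g12a and Pla2g6 in both groups. The mice of Pla2g15 and Pla2g16 overlapped with zileuton and not with vehicle. Plb1 at 5.96 ± 1.10 and Pla2g5 at 4.82 ± 0.847 TPM overlapped with vehicle, as they did with zileuton at 3.41 ± 1.99 and 4.88 ± 0.558 TPM.

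Each member was compared across mice with the other members and with all genes tested in both batches. All these correlations hold the sham and TBI difference itself, and the genes named are the highest picked out of 16516. After the mean of each batch was subtracted, the log2 CPM of Pla2g15 and Pla2g7 correlated most among the 36 pairs of tested members (Pearson's r = 0.979 over 12 libraries), a description that holds the sham and TBI difference itself. Over 16516 genes tested in both batches, the nearest patterns were Rhoc and Hacd4 for Pla2g15 (r = 0.995 and 0.994), Gm5086 and Laptm4a for Pla2g7 (0.991 for both), Cd28 and Ggh for Pla2g5 (0.992 and 0.973), and Mgme1 and Foxf1 for Plb1 (0.937 and 0.919). For the members with smaller changes they were Hbp1 and Eps8l2 for Pla2g16 (0.953 and 0.944), Tmco3 and Ivd for Pla2g6 (0.959 and 0.954), Abcd3 and Zfp24 for Pla2g12a (0.948 and 0.943), Gm47976 for Pla2g2d (0.923), and Mon2 and Chd9 for Pla2g3 (0.911 and 0.893). Pla2g3, not called after TBI, had r from -0.484 with Plb1 to 0.134 with Pla2g16, its only value above 0 among the tested members.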

How the data were processed

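RNA from brain tissue of 12 mice, 3 in each group, was sequenced as read pairs. The values of 2018 are raw counts per gene and FPKM, as the authors deposited them. Those of 2022 are estimated counts that the authors deposited, 13.0% to 15.2% of them not whole, and TPM, also deposited. The labels' processing notes name HISAT2, featureCounts, Subread, DESeq2 and GRCm39 without roles or versions. FPKM equal counts divided by library total and a length, which for 98.2% of genes, and for all 10 members, was the exonic length in GENCODE M21 (GRCm38), the source of positions here. In 2018, 62.3% to 64.4% of counts from 1 to 20 were even (41.9% to 42.9% in 2022), and a count is not taken as a molecule. Whether counting used strand is not given in the sources used here.

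Counts, rounded for 2022 although the plan assumed whole counts, were tested within each batch in R 4.3.3 with edgeR 4.0.16 (TMM, filterByExpr, glmQLFit, glmQLFTest) and Benjamini-Hochberg adjustment over all genes tested. The threshold was an adjusted p-value of 0.05, and intervals are at the 95% level. The common biological coefficient of variation was 0.174 in 2018 and 0.149 in 2022. Alternatives were DESeq2 1.42.0, its size factors, library totals alone, other filters on low counts, limma 3.58.1 on log2(value + 1) and log2(value + 0.1) of FPKM or TPM with a mean of at least 0.5 or unfiltered, a two-sample test of equal variance, two-sided, on FPKM or TPM after the study's methods, a length trend removed, a replicate block, and each mouse left out. Leaving out libraries with under 100 CPM of choroid plexus markers was added after the data were seen. Scripts were tested on simulated counts.

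Members and lists were chosen with earlier results of these data known. All 10 members are named, with up to 3 called genes per direction and list by size of change, and the 2 genes most correlated with each member. Of the genes this rule picks, 2 are not reported here. Enpp2, Pla2r1 and the chromosome 4 neighbours were chosen after their values were seen. Nothing says that the mice of a group were handled apart, so p-values measure the spread between these libraries.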

Additional observations from a re-analysis of the deposited data

How the results depend on the processing

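With 3 mice a group, the calls near the threshold moved most. For TBI against sham, 5 to 8 members were called under the other normalizations, filters, tools, limma fits, the length correction and the replicate block, in which 11.2% to 30.2% of all genes were called, against 7 members and 28% in the report. The exceptions were the equal-variance two-sample test on FPKM, with 2 of 7 tested members, 19 in place of 32 pathway genes and 16.5% of all genes called, and leaving out libraries with few choroid plexus reads, with 2 of 10 members and 7.22% of all genes called, 4 members with an unadjusted p-value under 0.05 in place of 8, and 15 pathway genes. That fit has 1 sham mouse, which is assumed to vary like the TBI mice. With each mouse left out, 3 to 7 members were called, 4 without sham replicate 2, 3 without sham replicate 3 and 4 without TBI replicate 1, and the share of all genes called was 19.0% to 24.7% (21.5%, 19.0% and 24.7% in those 3 fits). The ratio of Pla2g2f was 7.06 to 30.01 in these fits, 7.06 without TBI replicate 1. No member changed direction after TBI under any of these alternatives. Same-numbered mice did not deviate together (correlations -0.02, -0.09 and -0.03 in 2018, -0.28, 0.06 and -0.28 in 2022), and with a replicate block 5 members were called, Pla2g12a and Plb1 losing the call (adjusted p = 0.0882 and 0.0780). The cause of these changes was not tested.

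For zileuton against vehicle, DESeq2 called 1 member, and 0.0912% of all genes with at least 1 count. In 3 other settings 1 member in place of 2 had an unadjusted p-value under 0.05. These were limma on log2(TPM + 1) without a filter, the equal-variance test and the fit without the libraries with few choroid plexus reads. Values near 0 changed sign, and with each mouse left out they ranged from -0.48 to 0.10 for Pla2g2d (above 0 without vehicle mouse 2, or zileuton mouse 6 at 0.08), -0.24 to 0.26 for Pla2g5 (above 0 without vehicle mouse 6, or zileuton mouse 6 at 0.14), -0.038 to 0.091 for Pla2g6 (below 0 without vehicle mouse 2) and -0.15 to 0.057 for Pla2g7 (above 0 without vehicle mouse 6, or zileuton mouse 3 at 0.024). Pla2g2d was 0.016 with limma without a filter and 0.36 without the libraries with few choroid plexus reads, where Pla2g6 was -0.043. Pla2g5 was 0.020 with limma at a pseudocount of 1 with and without a filter, 0.026 at 0.1, 0.017 in the equal-variance test, 0.022 with the replicate block and 0.070 with the length trend removed. Pla2g7 was 0.024 in the 3 limma fits and 0.028 in the equal-variance test. Depth limits Pla2g2f and Pla2g2d, and the counts of Pla2g2f in zileuton mice cannot show a change.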
